A study of Mus musculus with 20 samples.

Results

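Lung epithelial transcripts were followed in whole fetal mouse hearts. The genes were Sftpc, Sftpb, Sftpa1 and Sftpd, which encode the surfactant proteins C, B, A and D, Scgb1a1, which encodes the club cell secretoglobin, and Ager, the receptor for advanced glycation end products. They were chosen by symbol: every probe set that the platform annotation gives to one of these 6 symbols was taken. The annotation gives 1 probe set each to 5 of the 6 genes, out of 8251 genes with a symbol and 12422 probe sets in all, and lists none for Sftpa1, which was not analysed here. The samples were 20 arrays of total RNA from hearts collected on gestation day 17.5. Treatment was by oral gavage on day 14.5, with corn oil for 8 control arrays and with the dioxin TCDD for 4 arrays at each of 1.5, 3 and 6 µg/kg; the series' design text speaks of 4 arrays per group. A TCDD label (1.5 µg/kg, array 1) appears to misplace the decimal point of the treatment day. The labels do not name a strain, a litter or the number of hearts per array, so every p-value measures only the spread between these arrays, and the number of arrays limits the precision.

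Surfactant proteins B and C lower surface tension in the alveolus and are made by alveolar type II cells, and surfactant proteins A and D are collectins of the airspace. Ager is strongly expressed by the flat type I cells of the lung, and Scgb1a1 by the club cells of the conducting airways. Neither alveoli nor airways are part of the heart, so these transcripts can mark tissue collected together with it. In lung epithelium the homeodomain factor NKX2-1 and the FOXA factors are known regulators of surfactant genes. In a whole-organ sample, fewer cells of a type and less RNA per cell cannot be told apart.

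A start region of Sftpb and one of Ager are shown because the transcripts of these genes moved most closely together in the hearts. Each window holds 250 bases before and 50 bases from a start that RefSeq's table gives for assembly GRCm38.p6, on the plus strand, at chr6:72304360-72304659 for Sftpb and chr17:34597600-34597899 for Ager. The Sftpb window spans the beginning of the annotated gene (72304610), whereas the Ager window lies wholly inside the annotated gene, which begins upstream at 34597460, so it shows an internal start and not the first one. Capitals mark matches, on either strand, to the NKX2-1 core CTCAAG and to the FOXA motif TGTTTNC.
Sftpb: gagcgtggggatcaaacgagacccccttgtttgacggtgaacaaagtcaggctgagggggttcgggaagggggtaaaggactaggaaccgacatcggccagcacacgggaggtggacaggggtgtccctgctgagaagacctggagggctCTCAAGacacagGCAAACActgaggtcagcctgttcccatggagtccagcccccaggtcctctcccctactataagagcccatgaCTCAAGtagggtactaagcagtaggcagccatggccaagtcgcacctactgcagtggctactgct
Ager: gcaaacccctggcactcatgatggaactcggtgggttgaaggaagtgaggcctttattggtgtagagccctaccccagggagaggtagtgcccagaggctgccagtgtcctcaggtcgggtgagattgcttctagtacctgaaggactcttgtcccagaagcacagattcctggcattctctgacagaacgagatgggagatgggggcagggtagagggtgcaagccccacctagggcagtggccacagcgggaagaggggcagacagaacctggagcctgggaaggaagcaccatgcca
The Sftpb window held 2 matches to CTCAAG, starting 100 and 15 bases before that start, and 1 match to the FOXA motif, on the minus strand, starting 88 bases before it. The Ager window held neither. Among all 32851 windows of this length, 15.9% held CTCAAG at least once, 1.40% held it 2 or more times, and 20.5% held the FOXA motif. Letters alone do not show that a factor binds there.

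Sftpc, the type II cell marker, was read above its array's 40th percentile of signal on all 20 arrays. It lies on chromosome 14, from 70520941 to 70524081 of GRCm38.p6. Its MAS5 signal, a linear intensity that the authors scaled to a common mean, ran in the 8 controls from 128 to 2334 with a median of 680 (679.6). At 1.5 µg/kg the 4 arrays gave 350.4, 1609, 969 and 3076. The 3 µg/kg arrays read 135, 1498, 2647 and 3512, and those that received 6 µg/kg read 134, 358, 2367 and 291. The lowest values were close together: controls 1, 2 and 7, array 1 at 3 µg/kg and array 1 at 6 µg/kg all lay between 128 and 138. Low and high arrays occurred in the controls and at each dose, and all 4 groups overlapped.

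Sftpb (chromosome 6, 72304610 to 72314373) was low in most arrays and high in a few. It reached its array's 40th percentile of signal on only 7 of the 20 arrays. Differences of Sftpb between groups therefore rest on dim signals in most arrays. In controls Sftpb ran from 39.5 to 375 with a median of 60.7 (60.65). The arrays at 1.5 µg/kg gave 52.2, 118.5, 98.2 and 121, those at 3 µg/kg 44.9, 318, 494.8 and 357, and those at 6 µg/kg 54.1, 64.0, 540.2 and 64.1. Control 8, arrays 2 to 4 at 3 µg/kg and array 3 at 6 µg/kg stood above all others, which reached 132 (131.5) at most. At 6 µg/kg a single array was high and the other values lay within the control range.

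Ager (chromosome 17, 34597460 to 34600937) ran in controls from 58.9 to 515 with a median of 190.4. At 1.5 µg/kg its signals were 187, 348, 399 and 468. At 3 µg/kg they were 54.1, 387, 429 and 667, and at 6 µg/kg 178, 71.7, 573 and 91.3. Ager also differed between controls 1 to 4 and controls 5 to 8. Controls 1 to 4 lay between 58.9 and 143, and controls 5 to 8 between 238 and 515, without overlap. Of all 8097 probe sets kept by the intensity filter, 3.73% had controls 5 to 8 above controls 1 to 4 in this way. The limma difference was 1.60 on the log2 scale (SE 0.52), with an adjusted p of 0.136, and 1.57% of the kept probe sets passed that comparison. Controls 5 to 8 also had the higher mean for Sftpc (1.42, SE 0.95), Sftpb (1.01, SE 0.57) and Scgb1a1 (0.40, SE 0.65). Their limma adjusted p were 0.52, 0.424 and 0.835. For Sftpd, fitted with no filter, the difference was −0.01 (SE 0.28). The labels name no batch, so the control numbers only identify the arrays.

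Scgb1a1 (chromosome 19, 9083642 to 9087956) ran in controls from 18.8 to 301 with a median of 156. The arrays at 1.5 µg/kg gave 176, 382, 188 and 557, those at 3 µg/kg 105, 708, 498 and 579, and those at 6 µg/kg 73.3, 91.5, 844 and 467. Arrays 2 and 4 at 1.5 µg/kg, arrays 2 to 4 at 3 µg/kg and arrays 3 and 4 at 6 µg/kg lay above every control, and the other arrays of each dose lay within the control range. Array 4 at 6 µg/kg was thus high for Scgb1a1 while Sftpb (64.1) and Ager (91.3) were low in it, and Slc34a2 was at its minimum there (8.8).

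**Figure D1:**
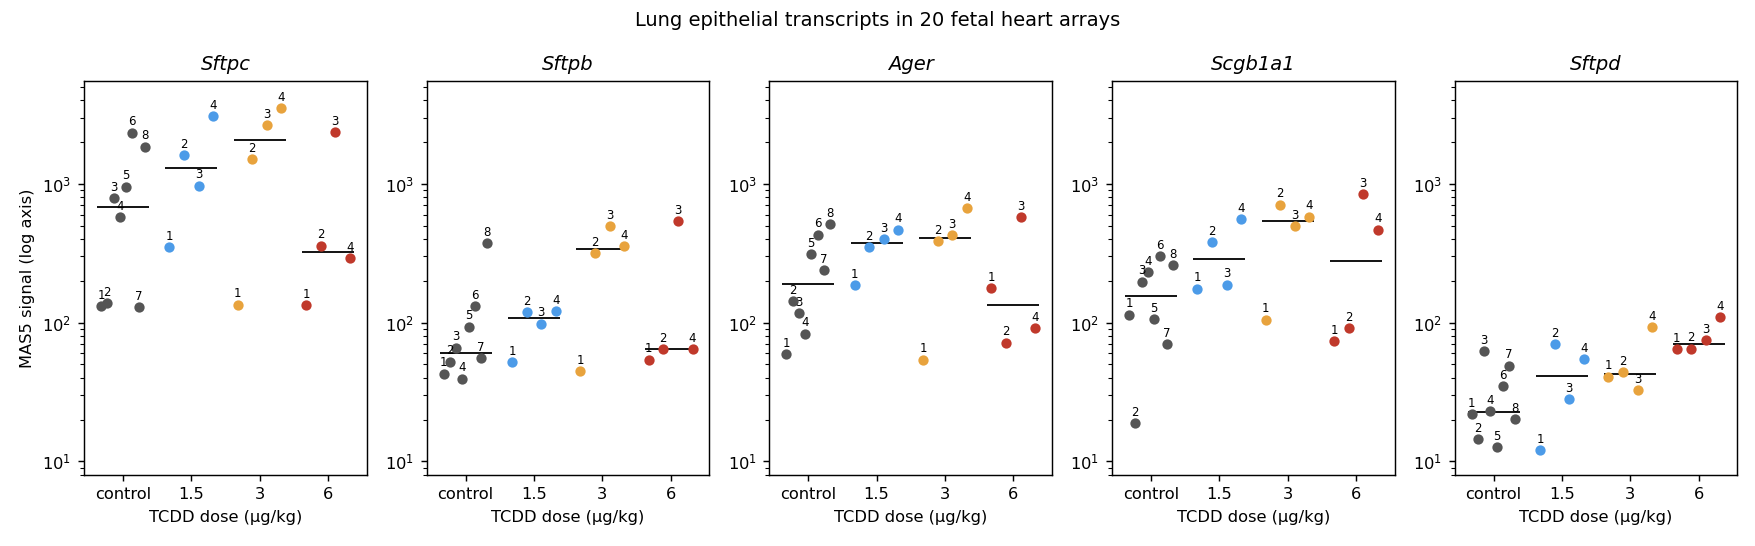
MAS5 signal (log axis) of the 5 measured lung epithelial genes by TCDD dose in µg/kg. Each point is 1 array with its number, and bars mark the group median. Sftpc spans 128 to 3512 over the 20 arrays, and array 1 at 3 µg/kg is the lowest of its group for Sftpc, Sftpb, Ager and Scgb1a1.

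Sftpd (chromosome 14, 41172212 to 41185198) was dim throughout. All 20 arrays lay below their own 40th percentile of signal, which ranged from 102 (101.6) to 127, so that Sftpd did not pass the intensity filter. In controls it ran from 12.7 to 62.6 with a median of 22.6 (22.55). The arrays at 1.5 µg/kg gave 12, 70.0, 28.2 and 54.2. Those at 3 µg/kg read 40.8, 43.8, 32.7 and 93.0, and the 6 µg/kg arrays read 64.1, 64.9, 75.0 and 109. At 6 µg/kg each of the 4 arrays lay above the highest control, as it did for 0.596% of all 12422 probe sets. The two-sided exact permutation test on log2 values gave p = 0.00202, which is the lowest possible for 4 arrays against 8. Of 20 such exact tests, 4 for each of the 5 genes, 1 other had p under 0.05, the comparison of controls 5 to 8 with controls 1 to 4 for Ager (exact permutation p = 0.0286, the lowest possible for 4 against 4). With the filter removed, limma gave Sftpd a log2 difference of 0.86 (SE 0.24) at 6 µg/kg, and the adjusted p over all 12422 probe sets was 0.239. At signals this low no fold change of the transcript can be read.

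The other 4 genes rose and fell together from array to array. For each of them the median over the 20 arrays was taken as a mark: in 8 arrays all 4 genes lay above their medians and in 8 arrays all 4 lay at or below them. The remaining arrays had 3 genes above in 2 cases and 1 gene above in 2 cases. The 8 arrays with all 4 genes above were 2 controls, 2 arrays of the 1.5 µg/kg group, 3 of the 3 µg/kg group and 1 of the 6 µg/kg group. The 8 with none above were 4 controls, 1 array of the 1.5 µg/kg group, 1 of the 3 µg/kg group and 2 of the 6 µg/kg group. Both kinds of array were thus found in every group.

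The joint variation was measured as the correlation of log2(signal + 32) over the 20 arrays after each dose group's mean had been removed. Of 10 pairs of genes, 5 passed a permutation test within dose groups (100000 permutations, two-sided, adjusted p under 0.05 over the 10 pairs). Sftpb and Ager were the closest, with Pearson's r of 0.89 and Spearman's rho of 0.90 (permutation p = 7e-05 and 1e-05, the latter the smallest these permutations can give; adjusted p = 0.000333 and 0.0001). Each was the other's nearest partner among 8096 probe sets. Sftpc and Sftpb had r = 0.85 and rho = 0.85 (permutation adjusted p = 0.0003 and 0.0004), and Sftpc and Scgb1a1 r = 0.82 and rho = 0.76 (0.000333 and 0.0006). Sftpc and Ager had r = 0.79 and rho = 0.80 (permutation adjusted p = 0.00297 and 0.0023), and Sftpb and Scgb1a1 r = 0.70 and rho = 0.62 (0.00412 and 0.0114).

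The relations were recomputed without the extreme arrays. Without the 2 arrays farthest from the median of the first gene, r was 0.86 for Sftpb and Ager, 0.78 for Sftpc and Sftpb, 0.74 for Sftpc and Scgb1a1, 0.68 for Sftpc and Ager and 0.63 for Sftpb and Scgb1a1. In the 8 controls alone the same pairs had r of 0.83, 0.73, 0.80, 0.66 and 0.48, and in the 12 TCDD arrays 0.92, 0.93, 0.84, 0.88 and 0.81. Over all 20 arrays with dose left in, they had 0.80, 0.80, 0.80, 0.82 and 0.73. Because Sftpb fell into 5 high and 15 lower arrays, r was also taken in the 15 with an Sftpb signal under 300, a choice made after seeing the data. There it was 0.85 for Sftpb and Ager, 0.87 for Sftpc and Sftpb, 0.73 for Sftpc and Scgb1a1 and 0.71 for Sftpc and Ager. For Sftpb and Scgb1a1 it was 0.56, with a permutation adjusted p of 0.0556, so that this relation did not pass without the 5 arrays of high Sftpb.

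Scgb1a1, the airway gene, and Ager, the type I cell gene, were the loosest of the 4: r was 0.57 and rho 0.51 (permutation p = 0.03 and 0.0412, adjusted p = 0.0501 and 0.0589). The r of this pair was 0.46 without the 2 farthest arrays, 0.28 in controls and 0.73 in TCDD arrays. Sftpd went with none of the other genes by Pearson's r (r from 0.08 to 0.41, lowest permutation adjusted p = 0.102). Its rho with Scgb1a1 was 0.49 (permutation adjusted p = 0.0496, r = 0.41).

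**Figure D2:**
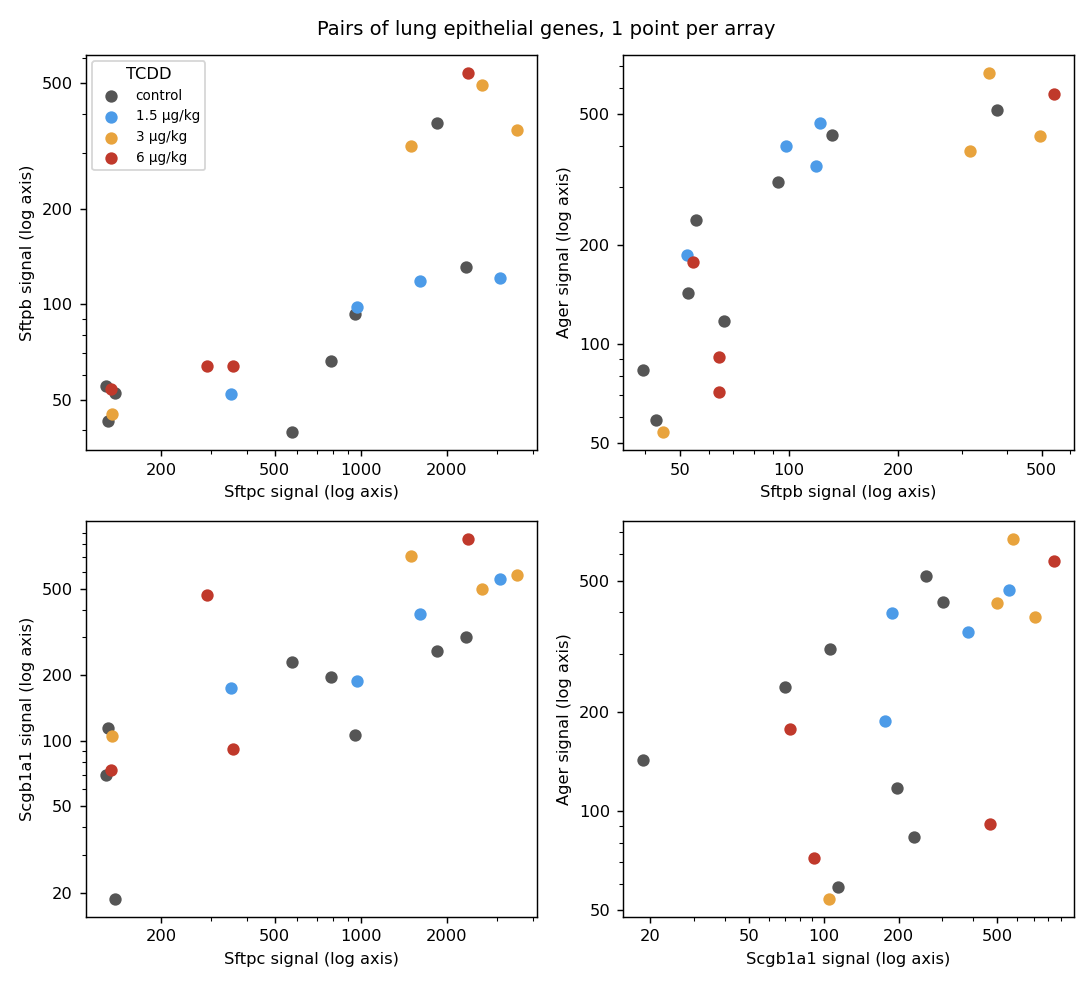
Signals of gene pairs (both axes log), 1 point per array, coloured by TCDD dose. Sftpb and Ager rise together over the 20 arrays (r = 0.89 with group means removed), while Scgb1a1 and Ager scatter more widely (r = 0.57).

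Of the 15 genes whose pattern was most like that of the lung epithelial genes, 6 were on the list of other lung alveolar and airway epithelial genes: Slc34a2, Ctsh, Muc1, Reg3g, Cyp2f2 and Wfdc2. Likeness was Pearson's r with the mean of the 5 genes' log2 values per array, with dose group means removed, over the 20 arrays. It is a description, since arrays share RNA quality and scaling. The list, of which 15 genes passed the filter, was chosen with earlier results of these data known. Over the 8093 kept probe sets other than the members the median r was −0.04, and 152 of them (1.88%) had an r of 0.5 or more. The highest was Slc34a2, the sodium phosphate cotransporter of alveolar type II cells (r = 0.89), followed by Ctsh, a cathepsin that processes surfactant protein B in those cells (0.88), and Muc1, an epithelial membrane mucin (0.84). Slc34a2 ran from 8.8 to 211 over the arrays, Ctsh from 274 to 645 (644.5) and Muc1 from 47.1 to 714. In the 5 arrays of lowest Sftpc, Ctsh was still between 274 and 383, while Slc34a2 was between 15.9 and 33.9.

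Next came the acetyltransferase gene Naa60 (0.81), the malic enzyme gene Me1 (0.76), Ly6e (0.73), the secreted lectin gene Reg3g (0.72), the epoxide hydrolase gene Ephx2 (0.72) and the neuregulin receptor gene Erbb3 (0.71). Adh1, an alcohol dehydrogenase, had 0.70, Hp, haptoglobin, 0.69, Cyp2f2, the cytochrome P450 of club cells, 0.68, Wfdc2, a secreted whey acidic protein of airway epithelium, 0.67, Pih1d1 0.67 and Chad, a cartilage matrix protein, 0.67. The spans differed widely: Reg3g ran from 11.8 to 1612 and Wfdc2 from 22.7 to 1091, but Naa60 only from 697 to 965 (964.5). The lowest r belonged to Emid1 (−0.77), Mroh1 (−0.75), Rcc1 (−0.75), Dusp19 (−0.73) and Bms1 (−0.72).

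**Figure D3:**
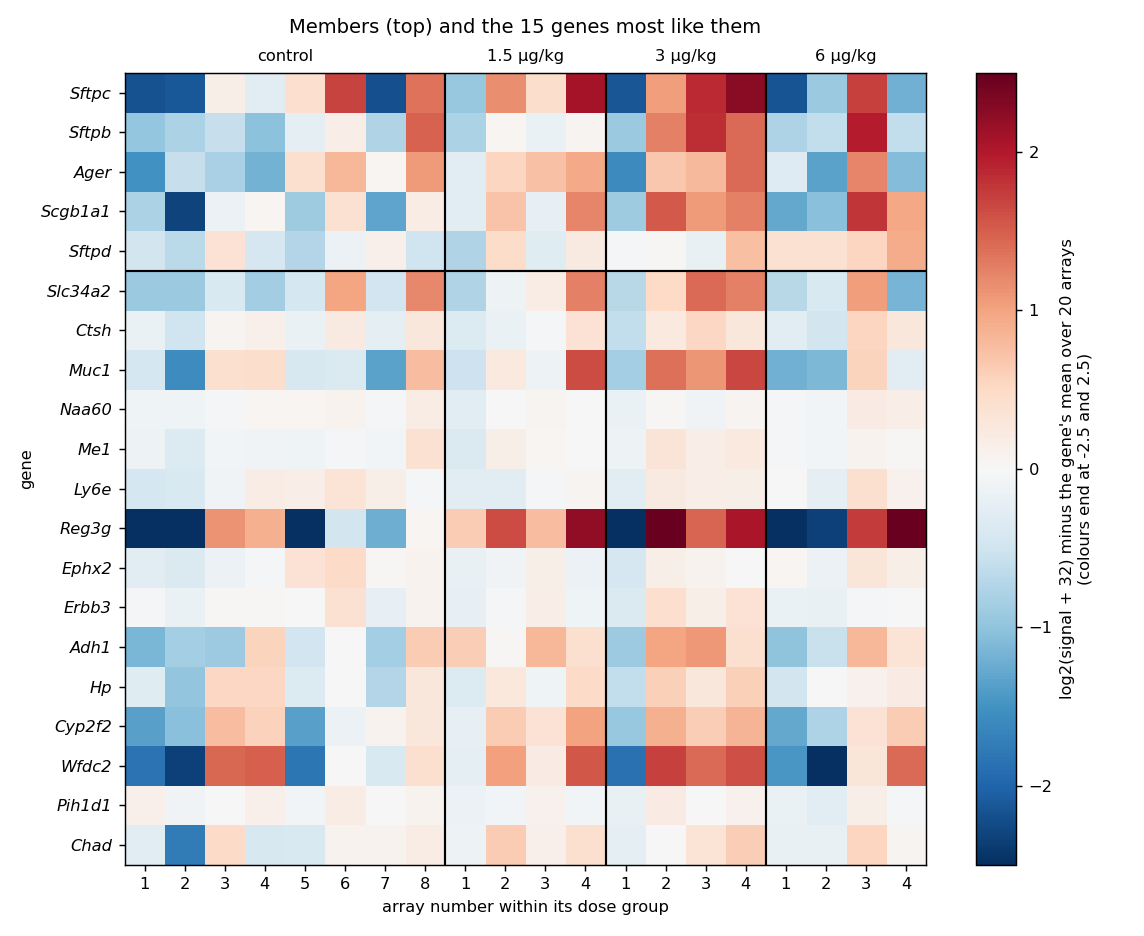
Heat map of log2(signal + 32) minus each gene's mean, for the 5 measured genes (top) and the 15 genes most like them, in the 20 arrays ordered by dose. Red is above and blue below the gene's mean. Array 4 at 6 µg/kg is red for Scgb1a1, Reg3g and Wfdc2 and blue for Sftpc, Sftpb, Ager and Slc34a2.

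Within this group the alveolar and the airway genes did not always move as one. Ager had r = 0.86 with Slc34a2 but 0.43 with Reg3g, 0.41 with Cyp2f2 and 0.40 with Wfdc2. Scgb1a1 had 0.88, 0.79 and 0.84 with these 3 airway genes and 0.64 with Slc34a2. These 3 were picked from the genes most like the lung epithelial genes. Elsewhere on the same list, Foxj1 had 0.47 with Scgb1a1 and 0.12 with Ager, but Cyp4b1 had 0.13 and 0.21. Not all type II cell genes followed this split. Ctsh had r = 0.92 with Scgb1a1 and 0.67 with Ager, and Sftpc had 0.82 and 0.79. A split between Ager and the airway genes was also visible in single arrays, which were picked after their values were seen. Controls 3 and 4 and array 4 at 6 µg/kg had Wfdc2 signals of 892, 935 and 877, among the higher ones, with Ager at 118, 83.4 and 91.3. Array 4 at 6 µg/kg also had a high log2 ratio of the 3′ to the middle β-actin control (1.02), a measure of RNA integrity. Control 5 had Wfdc2 at 66.0 and Reg3g at 12.3, among the lowest, with Ager at 310.3 and Sftpc at 953 (952.5). Arrays 2 to 4 at 3 µg/kg were high in both, with Wfdc2 at 1091, 886 and 1012. Controls 1 and 2 and arrays 1 at 3 and 6 µg/kg were low in both, with Reg3g between 11.8 and 19.1. The difference between these correlations was not tested.

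Of 36 other genes of lung alveolar and airway epithelium, 22 had a probe set and 15 passed the intensity filter. Of the 15, 14 had a positive r with the lung epithelial score and 6 had 0.5 or more, with a median of 0.39. The exception was Lpcat1 (−0.20), which had a negative r with each of Sftpc, Sftpb, Scgb1a1 and Ager (−0.21 to −0.31). Over all 8093 kept probe sets other than the members, 3570 had a positive r and 152 had 0.5 or more. Some genes of the list were dim. The highest signals over the 20 arrays were 125 for Foxa1, 118 for Foxa2 and 31.0 for Napsa, the type II cell protease. None of these passed the filter. The gene of NKX2-1 is on the list but had no probe set, so it was not measured. Below the leading genes stood Hopx (0.496), which the heart itself expresses, Foxj1, the regulator of ciliated cells (0.36), and Pdpn, a type I cell and mesothelial gene (0.26). General epithelial genes had a median r of 0.39 over 11 genes, led by the keratin gene Krt8 (0.66), Sox2, a transcription factor of airway epithelium (0.59), the claudin gene Cldn3 (0.52), Prss8 (0.42) and the cadherin gene Cdh1 (0.40). Epcam was not above 44.5 on any array.

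Markers of lung mesenchyme and of other neighbouring tissues followed the score less. The median r was −0.12 for trachea, oesophagus and squamous epithelium (5 genes), −0.04 for lung mesenchyme (4), −0.03 for mesothelium and epicardium (5), −0.07 for thymus and T cells (4) and −0.12 for brown fat (4). It was 0.02 for skeletal muscle (7) and 0.18 for cartilage (4, with Col9a2 at 0.55). For liver it was 0.23 (6, with Apoc1 at 0.50 and Alb at 0.22) and for macrophages and leukocytes −0.07 (11). Of the 4 lung mesenchyme genes, 1 had a positive r, Gli1 (0.40). No thyroid or parathyroid gene passed the filter. The defining heart muscle genes were bright on every array, with Myh6 between 12582 and 18634 and Actc1 between 16069 and 22725. The median r of the 18 heart genes was 0.26. Of these, 15 had a positive r and 2 had 0.5 or more, Myl4 (0.57) and Nkx2-5 (0.52). Gata4 (−0.49), Ryr2 (−0.28) and Hand2 (−0.20) had a negative r. The median r of all probe sets was −0.04. The lists were not tested against each other.

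**Figure D4:**
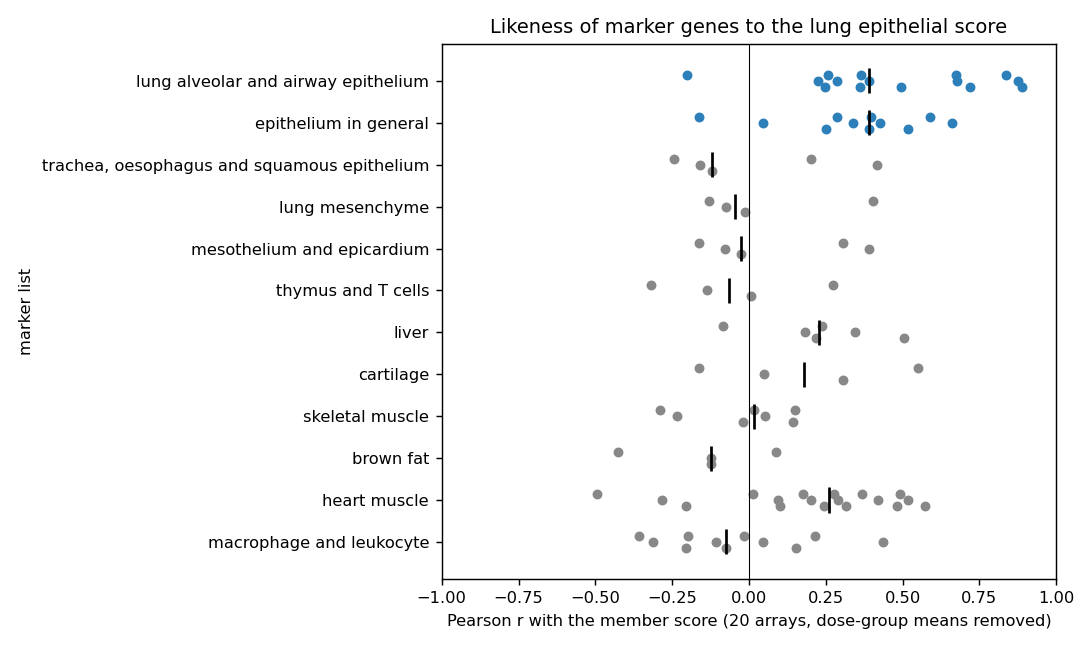
Pearson r of marker genes with the lung epithelial score over 20 arrays, by marker list. Each point is 1 gene and bars mark list medians, which are 0.39 for the lung and the general epithelial list (blue) and lie between −0.12 and 0.26 for the others (grey).

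The lung epithelial genes did not pass the test against controls at any dose. Of the 4 genes above the filter, limma called 0 at any dose (adjusted p under 0.05), beside 0.21% (1.5 µg/kg), 0.0247% (3 µg/kg) and 0.0741% (6 µg/kg) of all 8097 kept probe sets. The lowest unadjusted limma p against controls were 0.0235 for Scgb1a1 and 0.0258 for Sftpb, both at 3 µg/kg. At that dose Scgb1a1 had a log2 difference of 1.35 (SE 0.55) and Sftpb of 1.23 (SE 0.52). Their limma adjusted p were 0.779 and 0.788, and the exact permutation p were 0.0545 and 0.0828. Sftpc stood at 1.16 (SE 0.85) and Ager at 0.55 (SE 0.53). In 3 of the 4 arrays Scgb1a1 exceeded every control, and in array 1 all 4 genes were low. Without that array the log2 differences at 3 µg/kg were 2.12 for Sftpc, 1.89 for Scgb1a1, 1.84 for Sftpb and 1.19 for Ager, and none passed (lowest limma adjusted p = 0.425).

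At 1.5 µg/kg all 4 genes lay above the control mean without passing: Sftpc by 1.08, Scgb1a1 by 0.96, Ager by 0.71 and Sftpb by 0.12 on the log2 scale. At 6 µg/kg Scgb1a1 stood at 0.72 and Sftpb at 0.33 (0.335), while Ager stood at −0.16 and Sftpc at −0.24. The 95% intervals were wide, from −2.0 to 1.52 for Sftpc at 6 µg/kg and from −0.43 to 1.86 for Scgb1a1, so that changes of this size in either direction were not detectable with these arrays. The doses were also set against each other. None of the 4 genes passed at 6 against 1.5, at 6 against 3 or at 3 against 1.5 µg/kg, where 0.346%, 0.0371% and 0% of all kept probe sets did. The largest difference was that of Sftpc between 6 and 3 µg/kg (−1.40, SE 0.98, limma adjusted p = 0.615).

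**Figure D5:**
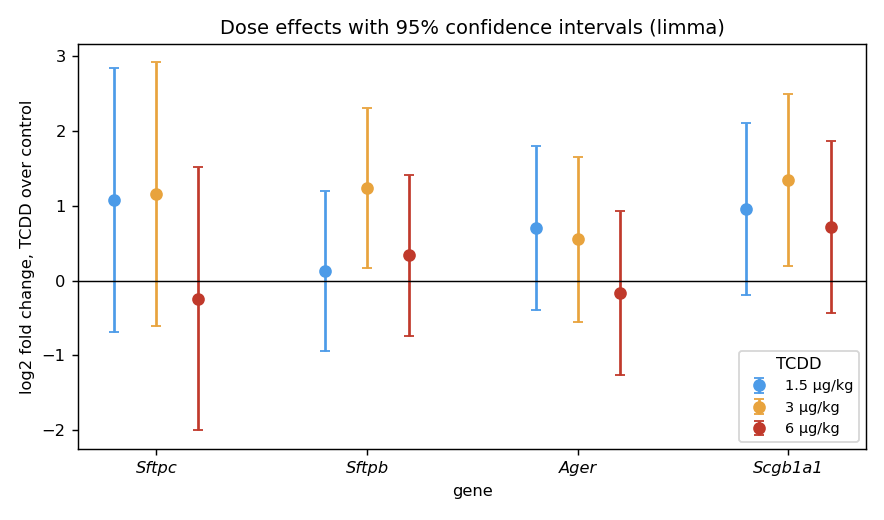
Log2 fold change of each TCDD dose over the controls on the log2(signal + 32) scale for the 4 genes above the filter. Points are limma estimates from 4 arrays against 8, and bars are 95% confidence intervals. The intervals at 1.5 and 6 µg/kg include 0 for all 4 genes. At the middle dose those of Sftpc and Ager include 0. Those of Sftpb (0.163 to 2.306) and Scgb1a1 (0.199 to 2.497) lie above 0 at the middle dose. Neither gene passed there (limma adjusted p = 0.788 for Sftpb and 0.779 for Scgb1a1).

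No trend over dose passed the test. The linear trend per µg/kg was −0.02 for Sftpc (95% interval −0.32 to 0.27) and −0.02 for Ager (−0.20 to 0.16). It was 0.09 for Sftpb (−0.09 to 0.28) and 0.14 for Scgb1a1 (−0.06 to 0.33). For these 4 genes the limma adjusted p ranged from 0.754 to 0.985, and 0.0618% of all kept probe sets passed. The dim Sftpd differed from them in its values: its group medians were 22.6 (22.55) in controls and 41.2, 42.3 and 69.95 at the rising doses. With no filter its trend was 0.14 per µg/kg (95% interval 0.07 to 0.22), with an unadjusted limma p of 0.00066 and an adjusted p of 0.249 over all 12422 probe sets. In the joint test of the 3 doses, limma adjusted p lay between 0.509 and 0.746, and 0.185% of all kept probe sets passed. Group means accounted for 12.6% of the variance of Ager, 14.2% for Sftpc, 22.1% for Sftpb, 24.1% for Scgb1a1 and 44.3% for Sftpd, against a median of 17.4% over all kept probe sets. Within dose groups the SD on the log2 scale was 1.64 for Sftpc, 1.06 for Scgb1a1, 1.01 for Ager and 0.97 for Sftpb, where the median probe set had 0.23. At least 99.9% of the kept probe sets had a smaller SD than each of these 4, and 87.8% had a smaller one than Sftpd (0.41).

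The other genes of lung alveolar and airway epithelium were not called either. Of the 15 above the filter, 10, 11 and 10 lay above the controls at 1.5, 3 and 6 µg/kg, with median log2 differences of 0.06, 0.27 and 0.04 where all kept probe sets had 0.01, 0.01 and −0.001, and limma called 0 at each dose. Reg3g had the largest difference, 2.29 at 1.5 µg/kg (SE 0.99, limma adjusted p = 0.34). Muc1 stood at 1.14 at 3 µg/kg (limma adjusted p = 0.807) and at −0.19 at 6 µg/kg, and Wfdc2 at 1.1 and −0.22.

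The β-actin control probe sets gave a measure of RNA integrity. The log2 ratio of the 3′ to the middle β-actin control was 0.896 or more in controls 1, 2 and 6 and in array 4 at 6 µg/kg, and 0.61 or less in all others. These 4 arrays held both low and high Sftpc signals, 131, 138, 2334 and 291. Without them the 5 pairs named above still passed, with r between 0.76 and 0.89 (highest permutation adjusted p = 0.0268). Array medians of the signal lay between 171 and 210 (210.0).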

How the data were processed

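Total RNA was isolated with Trizol from whole hearts, per the labels' protocols, and hybridised to Affymetrix arrays after cRNA labelling with an ENZO kit. The deposited values are MAS5 signals, a linear intensity per probe set, per the submitters' processing notes; the version is not given in the sources used here. The authors had scaled the arrays alike, since the 2% trimmed mean lay between 500.28 and 500.341 in the deposited table.

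From the deposited table of 12488 probe sets, 66 AFFX controls were left out of the tests. Signals were rescaled to a trimmed mean of 500 and taken as log2(signal + 32), so that fold changes of dim genes are understated. A probe set was kept if at least 4 arrays reached their own 40th percentile, which left 8097 of 12422. Symbols came from the platform annotation (10833 probe sets with 1 symbol, 396 with several, 1193 with none), of which 10817 were found in RefSeq of GRCm38.p6 by gene ID. Promoter windows are RefSeq's of that assembly; Sftpc, Sftpd and Scgb1a1 are shown without one.

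One fit of all 20 arrays with limma 3.58.1 in R 4.3.3 (eBayes with an intensity trend) gave the contrasts of TCDD with control, all dose pairs and the overall F test. The dose slope and controls 5 to 8 minus 1 to 4 each came from a separate fit of the same 20 arrays. Benjamini-Hochberg adjustment was over all kept probe sets. Exact permutation tests covered all splits of the arrays. Fits and correlation tests were tested on simulated data. Plots were drawn with matplotlib 3.10.9. Alternatives were quantile normalization, a pseudocount of 1 or 100, the deposited scaling, a filter at the 60th percentile or none, controls 1 to 4 or 5 to 8 alone, the replicate number as a block, array weights, no intensity trend, log2(dose + 1), TCDD doses alone and leaving out each array.

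Named genes were the members, the 15 probe sets with the highest and the 5 with the lowest likeness, and up to 5 genes per list by likeness; others are named for a low or high value of interest. Members and lists were chosen with earlier results of these data known.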

Additional observations from a re-analysis of the deposited data

Results flagged for a closer look

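At 6 µg/kg, array 3 stood far above the other 3 arrays for Sftpb, with a signal of 540.2. The gap to the next array was 0.942 of the group's whole range, above Dixon's critical value for 4 arrays. Of 20 gene and dose group combinations tested this was the only one, and chance gives about 1 in 20. The same array had the highest Scgb1a1 signal of all 20 (844) and the highest of its group for Sftpc (2367) and Ager (573).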

How the results depend on the processing

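No setting brought any lung epithelial gene past the limma threshold at any dose, over the trend, in the joint test or between controls 1 to 4 and 5 to 8. Over 616 alternatives for single genes 0 passed and 32 turned the sign of a difference that had not passed. For the 4 genes above the filter the lowest limma adjusted p against dose was 0.276 (Ager at 1.5 µg/kg with the replicate number as a block). That between the controls was 0.0502 for Ager without array 1 of 3 µg/kg. Sftpd, fitted with no filter, had a limma adjusted p of 0.239 at 6 µg/kg. Against controls 1 to 4 alone the log2 difference at 6 µg/kg was 0.64 for Ager and 0.47 for Sftpc, and their trends were 0.05 (0.049) and 0.014. Against controls 5 to 8 alone it was −0.38 for Sftpb and −0.10 (−0.096) for Ager at 1.5 µg/kg, −0.25 for Ager at 3 µg/kg and −0.17 for Sftpb at 6 µg/kg. With log2(dose + 1) the trend was 0.04 (0.039) for Ager and 0.10 for Sftpc, and with the TCDD doses alone −0.003 for Sftpb and −0.08 (−0.076) for Scgb1a1. Leaving out 1 array at a time, the difference at 6 µg/kg ran from −1.02 to 0.26 for Sftpc, −0.69 to 0.16 for Ager and −0.32 to 0.59 for Sftpb. The trend ran from −0.11 (−0.108) to 0.08 (0.078) for Sftpc and −0.085 to 0.038 for Ager, and the control difference of Scgb1a1 from −0.11 (−0.106) to 0.71. In these cases the cause was not tested.

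With the replicate number as a block, the 6 µg/kg differences were 0.64 for Ager and 0.47 for Sftpc and the trends 0.049 and 0.014, the same as against controls 1 to 4, because controls 5 to 8 share no number with a dose. Of 24 same-numbered array pairs, 5 had deviations over all kept probe sets correlated above 0.1 (median −0.009). Array 1 of the controls and of each dose had 0 of the 4 genes above their medians, a number picked after its values were seen. For numbers 2, 3 and 4 this count differed between groups. Whether same-numbered arrays share more than a number was not tested. The block changed no call.

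The count of correlated pairs was 5, and between 5 and 7 when 1 array was left out. It was 5 or 6 under the other planned settings, 5 when the arrays with the highest β-actin ratios were left out and 4 in the 15 arrays of low Sftpb, both chosen after seeing the data. Scgb1a1 and Ager passed in 11 of 26 alternatives. Taking the mean of a gene's probe sets changed nothing, since each gene has 1. Sftpd was fitted with no filter only.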
